A study of Mus musculus with 6 samples.

Results

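The 10 genes described here act on the Wnt pathway outside the cell, at its receptors or in its negative and positive feedback: the R-spondins Rspo1 and Rspo3, the secreted antagonists Dkk1, Sfrp1 and Sfrp2, the intracellular inhibitor Nkd1, the receptor ligase Rnf43, and the beta-catenin feedback genes Axin2, Lef1 and Sp5. They were taken as all probes whose RefSeq accession belongs to one of these symbols, which gave 12 of the 55681 probes on the array and 10 of 20887 named genes. Of these probes 11 could be tested, at least 1 for each gene.

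Expression was measured on 6 two-colour Agilent whole-genome arrays of cells sorted from salt-stressed mouse kidneys at postnatal day 1, with 3 pools per group. MUT pools 1 to 3 came from C57BL/6 mice that carried Hoxb7cre+, R26RtdTomato and Bdkrb2f/f, and WT pools 1 to 3 from mice with Hoxb7cre+, R26RtdTomato and Bdkrb2+/+. The Cre driver and the reporter were thus in both groups, as was the salt stress, and the groups differed in the floxed Bdkrb2 gene of the bradykinin B2 receptor. The cells were sorted for GFP and tdTomato as collecting duct cells, the offspring of the ureteric bud in which the Hoxb7 promoter is active. How many mice went into a pool is not stated in the labels. The pool carried Cy5 on every array and RNA of WT pool 1 carried Cy3, with no dye swap. WT pool 1 was therefore set against itself, and its ratios hold no biological spread. A value below is a log2 ratio of a pool to WT pool 1 after loess normalization within the array, unless it is called a signal, and a difference is MUT minus WT.

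On each array 27022 to 31314 probes were well above background in Cy5 and precision is limited by having 3 arrays per group. The probe of the deleted gene, Bdkrb2, stayed below the above-background flag on all 6 arrays and gives no check of the labels. All 20 markers of the ureteric trunk and collecting duct were well above background on all 6 arrays, and all 20 were lower in MUT pools (median difference -1.78). Of 29003 tested probes 7584 (26.1%) were called at an adjusted p under 0.05 in limma, and of 14586 tested genes, each by its brightest probe, 32.8%. The probe count was 4890 without WT pool 1, 3831 without WT pool 3 and 2194 with slide row as a block. WT pool 1 is the only WT sample that shares a row with the MUT pools. A difference with slide row as a block therefore sets the MUT pools against WT pool 1 alone, here and below. Of the called probes 44.2% were higher in MUT after loess, 58.2% with each array centred on its median and 99.0% when arrays were scaled to 10 spike-in probes. That last scaling took off -0.10, 0.28 and 0.93 from WT pools 1 to 3 and -0.77, -0.76 and -0.30 from MUT pools 1 to 3. Its differences are therefore imprecise, with an SE of 0.39 for both Sfrp1 and Rnf43. It put the median difference of tested probes at 0.98. Differences in the reported fit are thus relative to the typical probe of the array.

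In canonical Wnt signalling a Wnt ligand joins a Frizzled receptor to Lrp5 or Lrp6, the destruction complex that holds Axin is silenced, and beta-catenin enters the nucleus to act with TCF and LEF factors. R-spondins raise the number of Frizzled receptors by binding Lgr receptors and removing the ligases Rnf43 and Znrf3, whereas Dkk and Sfrp proteins block the co-receptor or bind the ligands. In the developing kidney Wnt9b from the ureteric bud acts on nephron progenitors and Wnt4 is needed when these form epithelium, while Wnt7b from the ureteric trunk acts on the interstitium of the medulla.

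Most of these genes were higher in MUT pools. Of the 10 genes 7 rose, 2 fell and 1 was not called, where 14.0% of all tested genes rose and 18.8% fell. Rspo1 rose 8.01-fold, Dkk1 5.40-fold and Rspo3 4.63-fold, and Sfrp2, Nkd1, Sp5 and Lef1 rose by 1.86-fold to 2.42-fold. At least a 2-fold rise was called for 6 of the 10 genes and a 2-fold fall for 1, against 3.37% and 5.23% of all tested genes. Sfrp1 and Rnf43 fell 2.14-fold and 1.94-fold, although with spike-in scaling they were at -0.12 and 0.03 and not called. Axin2 did not pass the test. The median difference was 1.18 over the 10 genes and -0.02 over all tested genes. All 3 MUT pools lay above all 3 WT pools for 8 of the genes and below them for 2, where the pools did not overlap for 52.5% of tested genes, 24.2% with MUT above and 28.3% with MUT below. The 10 genes and the pathway and marker lists below were chosen with earlier results of these data known. Their shares and medians beside those of all tested genes are therefore a description and no test of enrichment. The values of each pool are in the plot of log2 ratios by pool. An array of bulk RNA cannot tell fewer cells of a type from less RNA per cell, and this holds for every gene below.

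**Figure D1:**
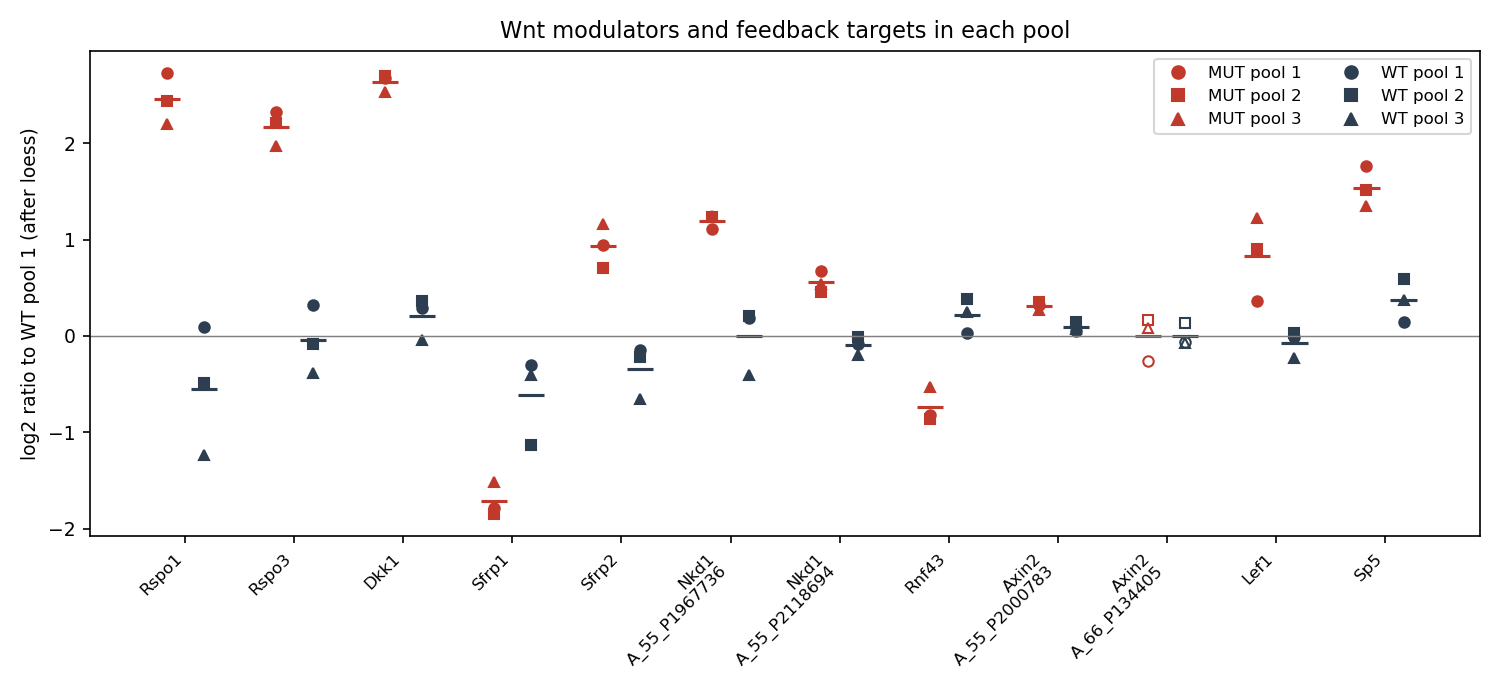
Log2 ratio to WT pool 1 after loess (vertical axis) of each probe of the 10 genes (horizontal axis) in the 3 MUT pools (red, left) and the 3 WT pools (dark, right), with a short line at each group mean. Open symbols mark the Axin2 probe that was too dim to test; the MUT pools of Rspo1 lie between 2.20 and 2.73 and its WT pools between -1.24 and 0.09.

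The sequences before the annotated starts of 4 of these genes are shown because Sp5 and Dkk1, which rose, hold short TCF/LEF words there, while Rspo1, which rose most, and Axin2, which was not called, hold none. Each is the 250 bases upstream of a RefSeq start in GRCm38.p6, written 5′ to 3′ on the strand of the gene, with capitals at each CTTTG that is followed by AA, AT, TA or TT, on either strand.
Sp5, chr2:70474673-70474922, plus strand: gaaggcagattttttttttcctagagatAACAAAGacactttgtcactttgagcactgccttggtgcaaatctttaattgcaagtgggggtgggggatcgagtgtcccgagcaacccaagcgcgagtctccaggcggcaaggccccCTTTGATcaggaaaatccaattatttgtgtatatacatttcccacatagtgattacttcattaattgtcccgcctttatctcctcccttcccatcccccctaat
Dkk1, chr19:30549497-30549746, minus strand: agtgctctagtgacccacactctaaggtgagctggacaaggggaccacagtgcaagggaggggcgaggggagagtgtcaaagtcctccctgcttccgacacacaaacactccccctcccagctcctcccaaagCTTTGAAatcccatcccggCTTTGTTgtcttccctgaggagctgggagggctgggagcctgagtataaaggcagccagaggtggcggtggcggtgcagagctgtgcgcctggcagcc
Rspo1, chr4:124986180-124986429, plus strand: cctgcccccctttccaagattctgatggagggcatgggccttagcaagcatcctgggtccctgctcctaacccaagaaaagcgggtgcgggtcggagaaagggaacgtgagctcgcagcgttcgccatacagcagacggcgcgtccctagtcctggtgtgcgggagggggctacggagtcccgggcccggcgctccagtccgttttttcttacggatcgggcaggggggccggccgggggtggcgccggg
Axin2, chr11:108920099-108920348, plus strand: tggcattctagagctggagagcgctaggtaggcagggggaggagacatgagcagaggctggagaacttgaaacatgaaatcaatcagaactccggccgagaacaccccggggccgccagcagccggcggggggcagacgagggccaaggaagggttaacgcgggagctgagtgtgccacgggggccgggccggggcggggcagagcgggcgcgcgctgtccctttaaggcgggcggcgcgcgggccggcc
Sp5 had CTTTGAT from 104 to 98 bases before its start and CTTTGTT on the opposite strand from 222 to 216 bases before it. Dkk1 had CTTTGAA from 117 to 111 and CTTTGTT from 98 to 92 bases before its start. No 2 matches overlapped. Windows were given for 8 of the 10 genes, all but Rspo3 and Sfrp1, and 3 of the 8 held a match, the third being Lef1 at 1 of its 4 annotated starts. Per gene, the same words occurred before 16.8% of all 27025 genes with a window. Per window, 3 of the 12 windows of these genes held one, against 14.8% of all 32851 windows, and 1.43% of all windows held at least 2. These matches are letters in a window and were not tested as sites.

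The R-spondins are the secreted agonists of the set. Rspo1 had log2 ratios of 2.73, 2.44 and 2.20 in MUT pools 1 to 3, and 0.09, -0.49 and -1.24 in WT pools 1 to 3. Its Cy5 signals, net of local background and before normalization, were 17590, 11610 and 8030 in MUT pools, against 1570, 603 and 437 in WT pools. The Cy3 signals of the same WT RNA ran from 481 to 927 over the 6 arrays, a far narrower range. The MUT pools were close to each other (SD 0.27, n = 3), and the WT pools were spread more widely (SD 0.67, n = 3), with WT pool 3 lowest. The difference was 3.00 ± 0.31 (SE, n = 3 per group, limma adjusted p = 0.000642), rank 14 by size among the tested probes. With slide row as a block it was 2.36 (limma adjusted p = 0.015).

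Rspo3 had 2.32, 2.21 and 1.97 in MUT pools 1 to 3, and 0.32, -0.08 and -0.38 in WT pools 1 to 3. Its Cy5 signals were 2497, 1966 and 1393 in MUT pools and 250, 96.5 and 77 in WT pools. The groups were well apart, although the array of WT pool 1 against itself already gave 0.32, a ratio of the same RNA in both channels. The difference was 2.21 ± 0.19 (SE, n = 3 per group, limma adjusted p = 0.000414). Of the other R-spondins, Rspo2 and Rspo4 were on the array but did not pass the filter on dim probes. The R-spondin receptors Lgr4 and Lgr5 differed by 0.07 and -0.33 and were not called.

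Among the antagonists, Dkk1 binds the co-receptors Lrp5 and Lrp6 and is itself induced by beta-catenin in many tissues. It had 2.68, 2.70 and 2.53 in MUT pools 1 to 3, against 0.29, 0.36 and -0.04 in WT pools 1 to 3. The pools of each group were close together, with an SD of 0.09 among MUT pools and 0.21 among WT pools (n = 3 each). The difference was 2.43 ± 0.13 (SE, n = 3 per group, limma adjusted p = 0.000365), and 0.117% of tested probes had a higher difference.

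The Sfrp antagonists, which resemble the ligand-binding domain of Frizzled and bind Wnts, moved in opposite directions. Sfrp2 had 0.94, 0.71 and 1.16 in MUT pools 1 to 3, and -0.15, -0.22 and -0.65 in WT pools 1 to 3, a difference of 1.27 ± 0.17 (SE, n = 3 per group, limma adjusted p = 0.00172). Sfrp1 had -1.78, -1.85 and -1.52 in MUT pools 1 to 3, and -0.30, -1.13 and -0.41 in WT pools 1 to 3. WT pool 2 stood nearest to the MUT pools, and its Cy5 signal of 1289 was below the 1868, 1608 and 1540 of the MUT pools, whereas WT pools 1 and 3 had 4017 and 3016. The groups were apart in the ratio and overlapped in the net Cy5 signal, which is not normalized between arrays. The summed net signal of the 24 cytoplasmic and export genes of the pathway, described below, shows how arrays differed in brightness. It was 141000, 136700 and 101400 in MUT pools 1 to 3, and 92600, 66230 and 78010 in WT pools 1 to 3. The median difference of that list was 0.01. Sfrp1 fell by 1.10 ± 0.22 on the log2 scale (SE, n = 3 per group, limma adjusted p = 0.00888), and the difference was -0.12 (limma adjusted p = 0.776) with spike-in scaling.

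Nkd1 binds Dishevelled and dampens the pathway, and is a common feedback target. Its brighter probe, A_55_P1967736, had 1.11, 1.23 and 1.24 in MUT pools 1 to 3, and 0.19, 0.21 and -0.41 in WT pools 1 to 3. The difference was 1.20 ± 0.17 (SE, n = 3 per group, limma adjusted p = 0.00239), and 1.01 (limma adjusted p = 0.0589) with the slide row as a block. The dimmer probe, A_55_P2118694, was well above background on 3 MUT and 2 WT arrays and rose by 0.65 ± 0.11 (SE, n = 3 per group, limma adjusted p = 0.00399). The dimmer probe thus entered the test through the pools in which it was high, and its direction adds no support to the brighter one. With the offset of 50 the probes differed in size. With a background offset of 1 in place of 50, an alternative chosen after seeing the data, the differences were 1.27 at the brighter probe and 1.18 at the dimmer one.

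Rnf43, the ligase that marks Frizzled receptors for removal, was the member that fell beside Sfrp1. It had -0.82, -0.86 and -0.53 in MUT pools 1 to 3, against 0.03, 0.38 and 0.25 in WT pools 1 to 3. The groups were apart, and Rnf43 fell by 0.96 ± 0.14 (SE, n = 3 per group, limma adjusted p = 0.00227), but the difference was 0.03 (limma adjusted p = 0.953) with spike-in scaling and -0.77 (limma adjusted p = 0.0569) with the slide row as a block. Znrf3, the related ligase, had -1.04, -0.29 and -0.14 in MUT pools and 0.09, 0.09 and 0.31 in WT pools, and was not called (limma adjusted p = 0.0695).

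Axin2 encodes a scaffold of the destruction complex and is the most widely used readout of beta-catenin activity. Its brighter probe, A_55_P2000783, had 0.32, 0.35 and 0.27 in MUT pools 1 to 3, and 0.05, 0.15 and 0.07 in WT pools 1 to 3. The MUT pools were all higher, but by little: the difference was 0.23 ± 0.09 (SE, n = 3 per group, 95% interval 0.01 to 0.44, limma adjusted p = 0.112). Both probes were close to background, with Cy5 signals of 119.5, 109 and 72.5 in MUT pools and 23, 33 and 36.5 in WT pools for the brighter one. For such a probe an offset of 50 shrinks any ratio, and with an offset of 1 the difference was 0.39 (limma adjusted p = 0.0674). With spike-in scaling it was 1.21 (limma adjusted p = 0.00772). The other probe, A_66_P134405, was well above background on 2 MUT arrays and 1 WT array and was not tested in the fit. Its log2 ratios were -0.26, 0.17 and 0.08 in MUT pools and -0.06, 0.13 and -0.07 in WT pools, which overlap (two-sided exact permutation test, p = 1, the smallest possible with 3 pools a group being 0.1).

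**Figure D2:**
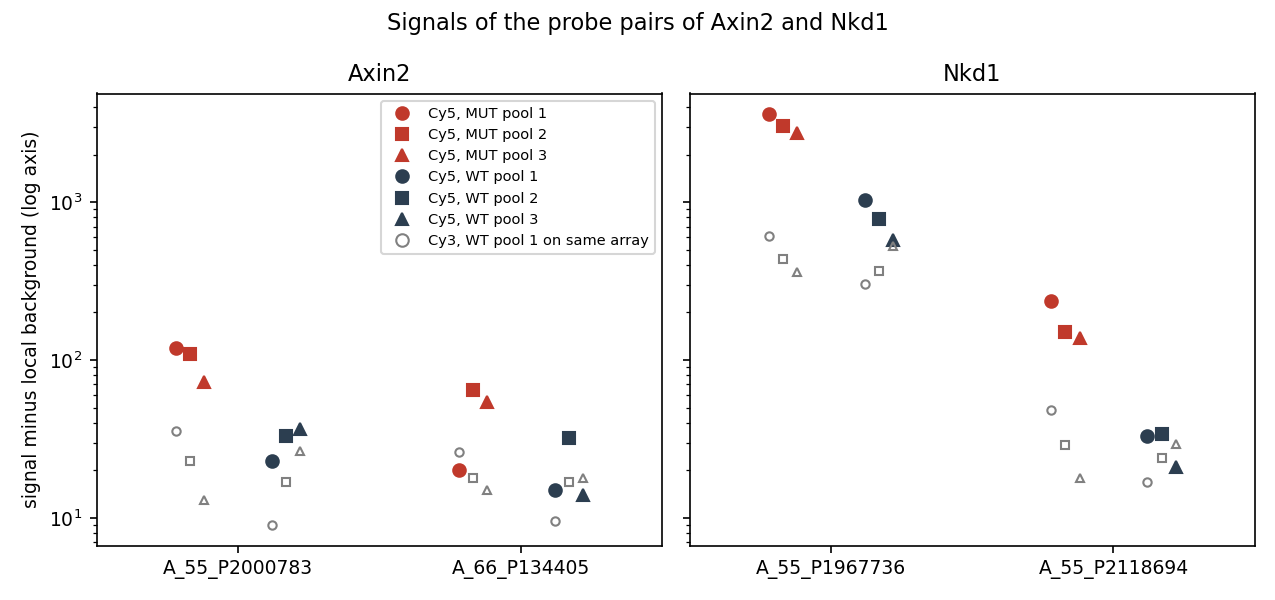
Cy5 signal minus local background on a log axis for the probe pairs of Axin2 (left panel) and Nkd1 (right panel) in MUT pools (red, left of each pair) and WT pools (dark, right), with the Cy3 signal of WT pool 1 RNA on the same array in grey. The brighter Axin2 probe reaches 119.5 in MUT pool 1, and the brighter Nkd1 probe 3614.

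Lef1 and Sp5 are transcription factors, of which Lef1 binds DNA with beta-catenin and Sp5 is a direct target that restrains other targets. Sp5 had 1.76, 1.51 and 1.35 in MUT pools 1 to 3, and 0.15, 0.59 and 0.37 in WT pools 1 to 3, a difference of 1.17 ± 0.15 (SE, n = 3 per group, limma adjusted p = 0.00158). Lef1 had 0.36, 0.90 and 1.22 in MUT pools 1 to 3, and -0.01, 0.03 and -0.23 in WT pools 1 to 3. MUT pool 1 was thus closer to the WT pools than to MUT pool 3, and the SD among MUT pools, 0.44, was the largest of the 10 genes. The difference of Lef1 was 0.89 ± 0.21 (SE, n = 3 per group, limma adjusted p = 0.0172). The call was lost without MUT pool 2 (limma adjusted p = 0.0558), without WT pool 1 (0.0521), without WT pool 3 (0.0795) and with the slide row as a block (0.175). Without MUT pool 1 the difference was 1.13.

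**Figure D3:**
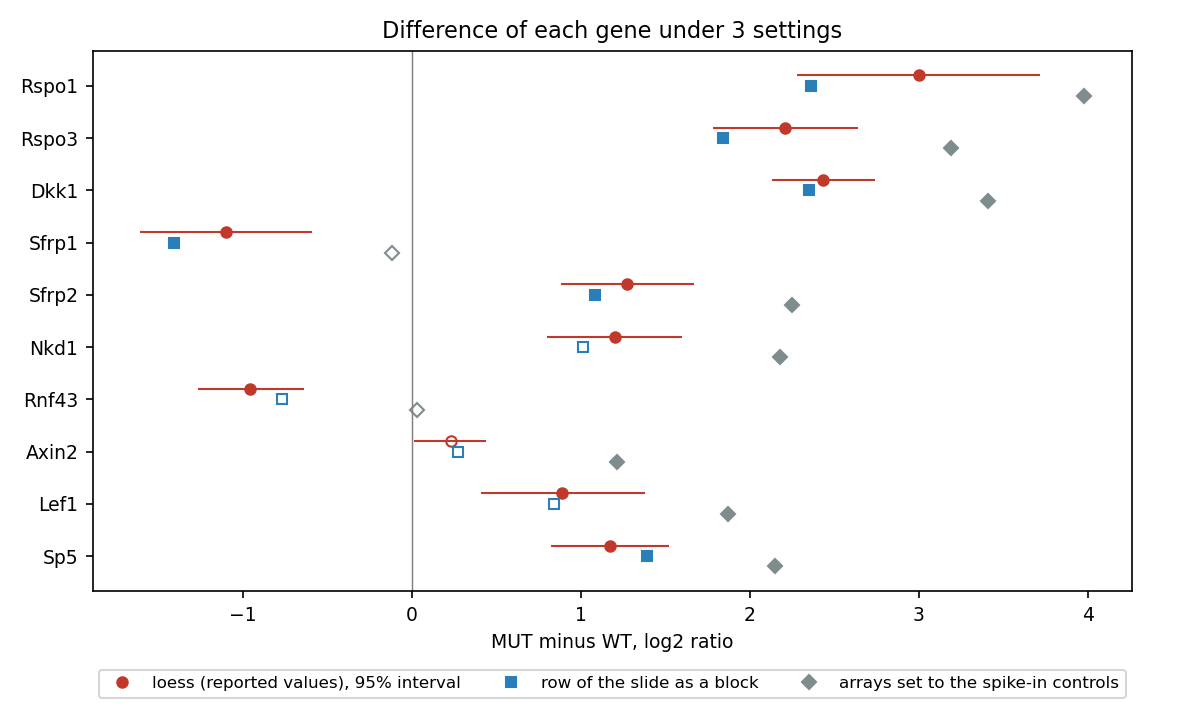
MUT minus WT difference in log2 ratio (horizontal axis) of each gene by its brightest probe, after loess with the 95% interval (red circles), with the slide row as a block (blue squares) and with spike-in scaling (grey diamonds). Filled symbols have an adjusted p under 0.05; Rspo1, Rspo3, Dkk1, Sfrp2 and Sp5 are filled in all 3 settings, and Rnf43 is at 0.03 with spike-in scaling.

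Likeness of pattern over the 6 arrays was measured by the root mean square difference of log2 ratios. Rspo3 lay 0.41 from Dkk1 and 0.46 from Rspo1, and Sfrp2, Nkd1 and Lef1 lay 0.33 to 0.36 from each other. Sfrp1 was farthest from Dkk1, at 3.15. Among all other tested genes the nearest to Rspo1 was Penk, which encodes proenkephalin, at 0.16. Nearest to Nkd1 was Tnfrsf19, itself a reported Wnt target, at 0.04, each by its brightest probe. The other probes did not share this likeness in size, with differences of 0.65 for Nkd1 and 0.09, not called, for Tnfrsf19. Lef1 lay nearest to Lhx1, a transcription factor of the early nephron, at 0.14, and Lhx1 had the same order of MUT pools, with 0.20, 0.95 and 1.43. Lhx1 itself was not called (limma adjusted p = 0.0644), and its MUT pool 1 lay below its WT pool 2, at 0.23. Sfrp1 lay 0.22 from Slc5a2, a glucose transporter of the proximal tubule, behind Cldn14 and Cdhr5, and all 3 had their lowest WT value in WT pool 2, as Sfrp1 did. Rnf43 lay nearest to Vstm5 at 0.06, Dkk1 to Snap91 at 0.15, Rspo3 to Dpysl4 at 0.13, Sfrp2 to Gdpd2 at 0.12 and Sp5 to Cntn3 at 0.12. These distances rest on 6 arrays, which share the Cy3 RNA, and are a description.

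Most markers of nephron progenitors and of stroma rose, whereas the lists of several other kidney cells, given below, fell or were mixed. Of 15 tested nephron progenitor markers 14 rose, with list medians of 2.05, 1.99 and 1.54 in MUT pools 1 to 3 and 0.07, 0.04 and -0.16 in WT pools 1 to 3. Their summed Cy5 signal, which like the sums below is not normalized between arrays, was 89660 to 194500 in MUT pools and 21300 to 35340 in WT pools. Tmem100, counted among the 14, was well above background on 3 MUT arrays and 1 WT array. It thus entered the test through the pools in which it was high. Of 19 tested stroma markers 14 rose and 1 fell, with medians of 1.04, 1.31 and 1.14 in MUT pools and 0.05, -0.57 and -0.74 in WT pools, and summed signals of 166600 to 227100 in MUT pools and 32000 to 69060 in WT pools. WT pool 3, the lowest for Rspo1, also had the lowest WT median in the stroma list, while the summed stroma signal was 32000 in WT pool 2 and 32150 in WT pool 3. Tbx18 in the stroma list did not pass the filter on dim probes.

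Markers of the ureteric trunk and collecting duct and of the loop and distal tubule fell, whereas most proximal tubule and ureteric tip markers were not called. The summed signal of the 20 trunk and collecting duct markers was 82530 to 88510 in MUT pools and 169000 to 232300 in WT pools, and all 12 loop of Henle and distal tubule markers fell (median difference -2.20). Of 14 proximal tubule markers 3 fell. The list median was -0.58, -0.71 and -1.03 in MUT pools and 0.07, -0.97 and -0.21 in WT pools, with WT pool 2 low as in Sfrp1. This was not particular to that list. WT pool 2 also had the lowest WT median for loop and distal tubule (-0.68), intercalated (-0.46), podocyte (-0.97) and erythroid markers (-1.36). The same held for trunk (-0.09) and endothelial markers (-0.07). WT pool 3 was lowest for nephron progenitor, early nephron, stroma and leukocyte markers, and WT pool 1 for ureteric tip markers. Of 12 ureteric tip markers 2 fell and 10 were not called. All 12 intercalated cell markers, 12 of 14 endothelial and 6 of 6 erythroid markers fell, 11 of 13 leukocyte markers rose, and early nephron (4 rose, 3 fell of 10) and podocyte markers (3 rose, 1 fell of 9) were mixed. Spike-in scaling adds a uniform shift and put the median difference of tested probes at 0.98. The median differences of endothelial (-0.91) and proximal tubule markers (-0.38) were smaller in size than that. Those of intercalated (-2.42) and erythroid markers (-2.52) were larger. The part of any of these cell types in the changes of the 10 genes was not tested.

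**Figure D4:**
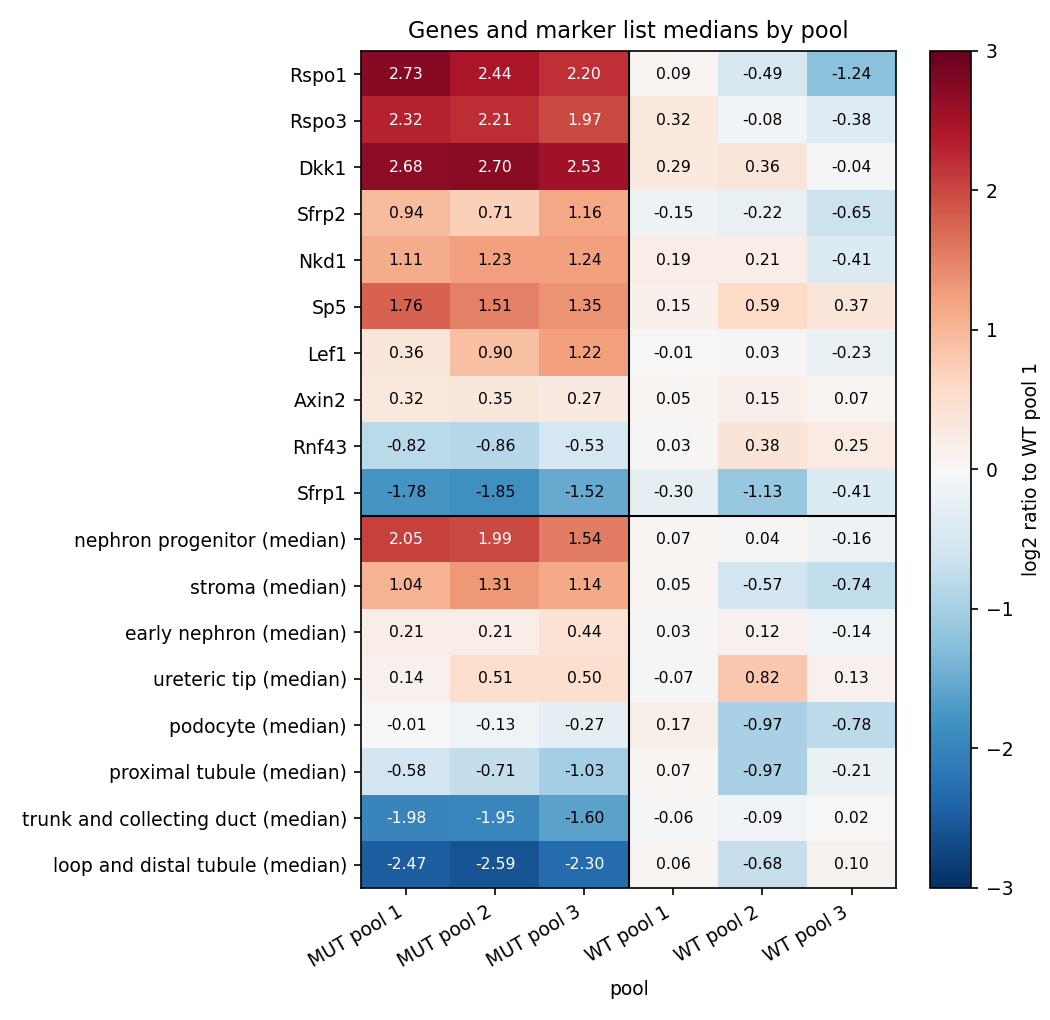
Log2 ratio to WT pool 1 (colour and printed value) of each of the 10 genes, and below the line the median of marker lists, in the 3 MUT pools (left) and 3 WT pools (right). Rspo1, Rspo3 and Dkk1 have values from 1.97 to 2.73 in MUT pools, beside nephron progenitor medians of 1.54 to 2.05 in the same pools.

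Of 109 other Wnt pathway genes on the array 91 were tested, of which 25 rose, 14 fell and 52 were not called, with a median difference of 0.07. This share of 39 in 91 stands beside 32.8% of all tested genes. Among genes well above background on all 6 arrays 38 were called. Without WT pool 3, 24 were called, and with the slide row as a block 13 were, all 13 in the direction given here. With spike-in scaling 8 of the 14 that fell had values above 0, and 0 of the 25 that rose had values below 0.

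Each difference of these genes has 3 pools per group. Of 13 tested other secreted modulators 4 rose and 2 fell, although 2 of the list were called without WT pool 3 or with slide row as a block. Frzb, another Frizzled-like antagonist, rose by 1.68 ± 0.15 (SE), Igfbp4 by 0.60, the Dickkopf relative Dkk3 by 0.52 and Notum, a feedback enzyme that strips the lipid from Wnts, by 0.44. With the Cy5 channel alone Notum was at 0.18 and not called (limma adjusted p = 0.493). Sostdc1, a secreted BMP and Wnt antagonist, fell by 2.56 ± 0.28 (SE, limma adjusted p = 0.000837) and was at -1.58 with spike-in scaling. Its other probe was at -2.51 and was called. Trabd2b, a Wnt-cleaving protease, fell by 0.48 but was at 0.50 with spike-in scaling, and lost its call with the scanner software's processed signals (-0.46, limma adjusted p = 0.106) and with median centring (-0.38, 0.118). The other probes of Trabd2b were at -0.74 and -0.47 in the reported fit and were called.

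Of 21 tested receptors and co-receptors 8 rose and 4 fell. Adgra2, a co-factor of Wnt7 signalling in vessels, rose by 1.94 ± 0.20 (SE), the Wnt5a receptor Ror2 by 0.88, and the Frizzled receptors Fzd7 and Fzd2 by 0.75 and 0.71. Their other probes were also called, at 0.35 for Fzd7 and 1.07 for Fzd2, so the sizes differ by probe. Tspan12, a Frizzled4 co-factor, fell by 1.31 ± 0.13 (SE) and Fzd4 by 1.19 ± 0.32 (SE), at -0.33 and -0.21 with spike-in scaling. Fzd8 and Fzd6 fell by 0.74 and 0.43 but were at 0.24 and 0.55 with spike-in scaling. Fzd4 and Fzd6 lost their calls with the scanner software's processed signals (limma adjusted p = 0.0674 for Fzd4 and 0.0908 for Fzd6), and Fzd6 also with median centring (-0.32, 0.161) and with the Cy5 channel alone (-0.37, 0.136).

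Of 24 tested cytoplasmic and export genes 4 rose and 2 fell. Ctnnb1, which encodes beta-catenin, differed by -0.01 and was not called. The Dishevelled-binding proteins Dact3 and Dact1 rose by 2.12 ± 0.21 (SE) and 1.60 ± 0.14 (SE), with the other probe of Dact1 at 0.70 and not called. Btrc and Csnk1a1 rose by 0.55 and 0.53, with other probes at 0.00 and -0.39 that were not called. Wls, which carries Wnts to the cell surface, and Porcn, which adds their lipid, fell by 0.88 and 0.66 but were at 0.10 and 0.32 with spike-in scaling. Of 13 tested nuclear genes 3 rose, Tcf7l1, Tcf7 and Tle4 by 0.57, 0.72 and 0.49, and Tle2 fell by 0.49 but was at 0.49 with spike-in scaling. Other probes of Tcf7 and Tle4 were at 0.18 and 0.14 and were not called, while that of Tle2 was at -0.51 and was called. Tcf7 lost its call with the scanner software's processed signals (0.96, limma adjusted p = 0.0613), and Tle2 with median centring (-0.35, 0.0841). The nuclear list had 2 calls without MUT pool 2 or without WT pool 1, and 0 without WT pool 3 or with the slide row as a block.

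Of 12 tested Wnt ligands 3 rose and 4 fell. Wnt4 rose by 2.13 ± 0.20 (SE) at one probe and by 2.07 at its other, and Wnt5b by 1.73. Wnt8b, counted as the third, was well above background on 3 MUT arrays and 1 WT array, so it entered the test through the pools in which it was high. Its difference was 0.84 with the offset of 50 and 2.43 with the scanner software's processed signals. The ureteric trunk ligand Wnt7b fell by 1.14 ± 0.11 (SE), Wnt10a by 1.46, and Wnt5a and Wnt9b by 0.70 and 0.97, at -0.16, -0.48, 0.28 and 0.01 with spike-in scaling. Of 8 tested reported targets 3 rose and 1 fell: Tnfrsf19 by 1.19 ± 0.16 (SE), Myc by 0.78 and Jag1 by 0.56, while Met fell by 1.02 and was at -0.04 with spike-in scaling. The other probe of Tnfrsf19 was at 0.09 and was not called.

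**Figure D5:**
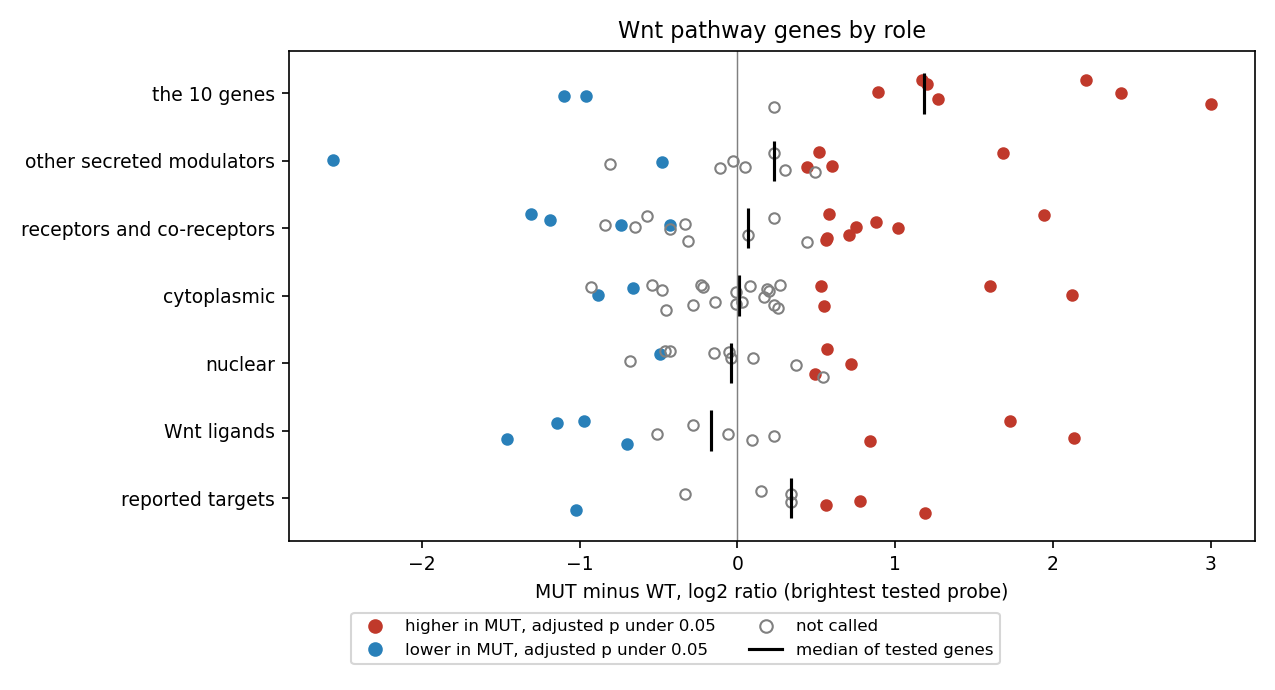
MUT minus WT difference in log2 ratio (horizontal axis) of the 10 genes and of the other tested Wnt pathway genes by role (rows), each by its brightest tested probe, with called genes filled (red higher, blue lower in MUT pools) and a line at each median. The median is 1.18 for the 10 genes and lies between -0.17 and 0.34 in the other lists.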

How the data were processed

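RNA of 3 MUT and 3 WT pools, 0.5 µg per labelling reaction per the labels, was hybridised on 1 slide, per the file headers. The deposited scanner files, named by the submitters' processing notes as output of Agilent Feature Extraction version 10.7.3.1, hold spot and background intensity, processed signals and a log10 ratio, and the deposited value table was used as a log10 ratio. Median signals were background corrected (normexp, offset 50) and the log2 ratios made from the deposited intensities were loess-normalized, with control spots at weight 0. Outlier spots were left out, spots of a probe averaged, and 29003 of 55681 probes were kept, those whose Cy5 spot passed the scanner's above-background flag throughout at least 1 group of 3 arrays. A gene is represented by its brightest tested probe. Groups were compared by limma (3.58.1, R 4.3.3, data.table version 1.17.8) with no covariate and Benjamini-Hochberg adjustment over all tested probes. Figures used Python 3.11.15 with matplotlib 3.10.9. The offset shrinks ratios of dim probes. Probe accessions were matched to RefSeq genes of GRCm38.p6, which named 27509 probes. The file headers name another build, so coordinates are given for promoter windows alone. The 10 genes, the pathway and marker lists and the tests were chosen with earlier results of these data known. Other genes named are the called list members with the smallest p, up to 4 per direction and list, and the nearest patterns of each member. Rspo2, Rspo4, Lgr4, Lgr5, Znrf3, Ctnnb1 and Tbx18 were named after their values were seen. Alternatives covered background, normalization, spike-in scaling, filter, deposited table, Cy5 alone, blocks by pool number and slide row, eBayes settings, array weights, each pool left out and the mean over probes. The series' design text calls the pools biological replicates. With 3 pools per group the smallest exact permutation p is 0.1.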

Additional observations from a re-analysis of the deposited data

How the results depend on the processing

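The 22 alternatives left Rspo1 (differences 2.36 to 4.0), Rspo3 (1.84 to 3.32), Dkk1 (2.31 to 3.48), Sfrp2 (1.08 to 2.25) and Sp5 (1.06 to 2.15) called in the same direction. With spike-in scaling after loess, Sfrp1 was at -0.12, Rnf43 turned to 0.03 and Axin2 was called at 1.21, with 19455 probes called. Without loess the values were -0.22, -0.07 and 1.09, with 15598 probes. With the slide row as a block, Nkd1 (1.01), Rnf43 (-0.77) and Lef1 (0.84) lost their calls, 2194 probes were called, and 13 of the other Wnt genes. By construction, the spike-in scaling adds a uniform shift, and the row block sets the MUT pools against WT pool 1 alone. The cause of these changes was otherwise not tested. Leaving out each pool in turn gave 2.65 to 3.32 for Rspo1, 2.04 to 2.39 for Rspo3, 2.31 to 2.51 for Dkk1, -1.36 to -0.94 for Sfrp1, 1.12 to 1.39 for Sfrp2, 0.99 to 1.31 for Nkd1, -1.06 to -0.87 for Rnf43, 0.20 to 0.26 for Axin2, 0.70 to 1.13 for Lef1 and 1.06 to 1.28 for Sp5. In the same fits 8 to 9 of the 10 genes, 3831 to 9536 probes and 24 to 43 other Wnt genes were called. In the other Wnt genes, values turned positive with spike-in scaling after loess for Fzd6 (0.55), Fzd8 (0.24), Porcn (0.32), Tle2 (0.49), Trabd2b (0.50), Wls (0.10), Wnt5a (0.28) and Wnt9b (0.01), and without loess for Fzd6 (0.46), Fzd8 (0.07), Porcn (0.22), Tle2 (0.43), Trabd2b (0.41), Wls (0.02) and Wnt5a (0.17). Pool numbers are shared by the groups as labels. The deviations of same-numbered pools from their group means correlated at 0.14, 0.07 and 0.20 for pools 1 to 3, each the highest for its pool but not all over 0.1. Deviations from a mean of 3 pools are tied to each other, and WT pool 1 was set against itself. These correlations are thus not separate observations and cannot settle whether pools were paired. With pool number as a replicate block 9 of the 10 genes and 7247 probes were called, and it changed no call of the 10 genes. Dim signal limits the Axin2 probes and the dimmer Nkd1 probe most.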
